A study of Mus musculus with 3 samples.

Results

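At day 11 after myocardial infarction, 68 of 4406 heart macrophages carried RNA of the TdTomato reporter, and they were compared with the macrophages of the same library that carried none. Macrophages were cells with at least 500 detected genes, at most 10% of UMIs (unique molecular identifiers, which count captured RNA molecules) from mitochondrial genes, and at least 40 UMIs of the complement genes C1qa, C1qb and C1qc per 10000. A cell was called TdTomato-positive at 1 or more TdTomato UMIs, and each positive cell was set beside the 10 unused TdTomato-negative cells closest to it in total UMIs, which gave 680 matched negative cells out of 4338. The library held 4697 cell barcodes, of 8283 in the series. The TdTomato UMI itself chose the cells, so it is described here and supports nothing.

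The study sequenced RNA of single cells from mouse hearts in 3 libraries, 1 per group, with a droplet-based 3′ assay. The day 11 and steady-state macrophage libraries came from C57BL/6 mice of the genotype Cx3cr1CreER-YFP/+:R26Td/+, aged 8 to 12 weeks, and the macrophage and dendritic cell library came from uninjured wild-type C57BL/6 mice of the same age. Hearts were digested with flavopiridol present, an inhibitor of transcription, and live cells positive for CD45, CD64 and CD11b were taken by sorting for the macrophage libraries. The labels do not give the time of tamoxifen or the number of mice pooled. With 1 library per group no p-value is given, cells are not replicates, and all intervals are exact 95% intervals for counting error only, which treat each UMI as independent.

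In these mice a tamoxifen-activated Cre recombinase is made wherever the fractalkine receptor gene Cx3cr1 is active, and Cre removes a stop signal so that TdTomato is made from the Rosa26 locus from then on, also in the cell's progeny. Blood monocytes transcribe Cx3cr1 too but are replaced from unlabelled precursors in the marrow, so the label is used to follow macrophages that were in the tissue at the time of tamoxifen. In the heart, resident macrophages are known for Timd4, Lyve1 and Folr2, while macrophages recently derived from monocytes are known for Ccr2, and the infarct also draws macrophages with lipid-handling and repair genes such as Gpnmb, Spp1 and Arg1. MHC class II genes, which present peptides to helper T cells, vary among macrophages of both origins.

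The day 11 library held 45177529 UMIs, and 24 of its barcodes failed the quality limits and 267 failed the C1q limit. TdTomato was counted 71 times, in 65 cells with 1 UMI and 3 cells with 2 UMIs, so the members just inside the threshold are nearly all of them and those just outside have 0. The other reporter entries were EYFP with 1570 UMIs and CreERT2 with 25 UMIs. No TdTomato-positive cell shared its barcode with another library, although 11 day 11 barcodes also occurred in the macrophage and dendritic cell library and 8 in the steady-state library. At so sparse a capture, a cell with 0 TdTomato UMIs is not shown to lack the reporter.

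TdTomato RNA was found in 1.54% of the day 11 macrophages (95% interval 1.20 to 1.95%), or 1.67 CPM (1.30 to 2.10), where CPM is UMIs per 1000000 UMIs of the pooled cells. None of the 267 cells that failed the C1q limit had a TdTomato UMI, which allows a share of up to 1.37%, a limit that overlaps the macrophage interval. Their median was 8624 UMIs per cell, against 8207 in the macrophages. The same held for the 24 of them with lymphocyte, endothelial or fibroblast markers, which allows up to 14.2% at a median of 4281 UMIs. By the same rule, 232 of 1722 steady-state macrophages (13.5%, 11.9 to 15.2%) had TdTomato RNA, at 13.4 CPM (12.0 to 15). The steady-state level in CPM was 8.06 times that of day 11 (6.21 to 10.6), between libraries that differ in injury and for which the labels do not say whether they share a tamoxifen schedule.

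TdTomato-positive cells were deeper than the rest of the macrophages. Their total UMIs ran from 3407 through a median of 9200 to 29825, the matched cells from 3392 through 9203 to 30817, and all negative cells had a median of 8198. The median gap between a positive cell and its matches was 0.119% of total UMIs and the largest was 4.69%. After matching, C1q RNA was alike at the median (197 against 203 UMIs per 10000), while the lowest positive cell had 97.0 and the lowest matched cell 41.1. Mitochondrial UMIs were 2.49% at the median in positive cells and 2.09% in matched cells. Core macrophage genes did not separate the groups: of 14 tested, 7 had a ratio above 1 and 7 below, with a median log2 ratio of 0.02, and Csf1r, the receptor for the macrophage growth factor, had UMIs in 100% and 99.4% of cells.

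Reporter RNA was uneven over the macrophages when these were divided by marker UMIs. Timd4 encodes a phosphatidylserine receptor on long-lived resident macrophages, and 19 of the 351 cells with a Timd4 UMI were TdTomato-positive (5.41%, 3.29 to 8.32%). Of 372 cells with Lyve1, a hyaluronan receptor, but no Timd4, 11 were positive (2.96%, 1.49 to 5.23%). Cells with Ccr2 and neither of the former gave 20 of 1855 (1.08%, 0.660 to 1.66%), and cells without any of the 3 genes gave 18 of 1828 (0.985%, 0.585 to 1.55%). The first class was deeper, with a median of 11263 UMIs against 8745 and 7348 in the last pair. In CPM, which scales by total UMIs, TdTomato stood at 4.58 (2.80 to 7.07) with Timd4 and 1.33 (0.994 to 1.75) without it, a ratio of 3.43 (1.94 to 5.86). For Lyve1 the ratio was 2.18 (1.27 to 3.66). It was 0.792 (0.483 to 1.30) for Ccr2 and 0.923 (0.543 to 1.53) for Gpnmb, with intervals that span 1. Counting every cell with a Ccr2 UMI, 34 of 2195 were positive (1.55%), against 34 of 2211 without (1.54%). The cells in these ratios were not matched on depth. TdTomato CPM was 2.17, 2.18, 1.11 and 1.64 in 4 equal depth sets, from the shallowest to the deepest. The gene ratios given further on count the same positive cells the other way round, so the 2 views do not support each other.

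The steady-state library did not show that order in CPM. There TdTomato stood at 11.6 CPM (9.94 to 13.4) in cells with Timd4 and at 17.2 in cells without it, a ratio of 0.674 (0.535 to 0.851). The share of cells went the other way, 15.5% with Timd4 and 10.8% without, at median depths of 14047.5 and 8578 UMIs, and TdTomato CPM was 18.0 in the shallowest and 11.9 in the deepest of 4 equal depth sets. Between depth-matched steady-state cells with and without TdTomato, Timd4 had a ratio of 1.04 (0.930 to 1.15). The rate was 2.53 times higher at steady state than at day 11 among cells with Timd4 (1.59 to 4.24). Among cells with Ccr2 but no Timd4 or Lyve1 it was 13.6 times higher (7.65 to 24.7), and among cells without any of the 3 genes 14.4 times higher (7.50 to 28.2). These are ratios of 2 libraries, and whether they differ from each other was not tested.

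**Figure D1:**
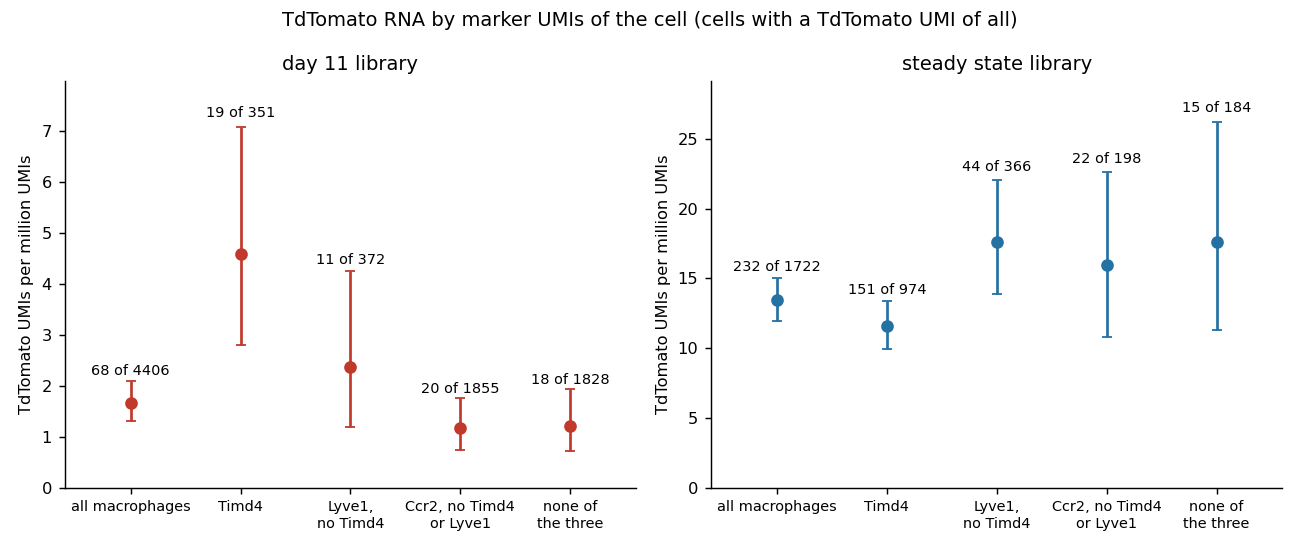
TdTomato CPM (vertical axis, from 0, on different scales) in macrophages of the day 11 library (left) and the steady-state library (right), for all cells and for 4 classes of cells by their Timd4, Lyve1 and Ccr2 UMIs. Points are rates with exact 95% counting intervals, and the numbers above give cells with a TdTomato UMI of all cells. At day 11 the rate is 4.58 with Timd4 and 1.17 with Ccr2 but no Timd4 or Lyve1, while at steady state it is 11.6 and 15.9.

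Timd4 (ENSMUSG00000055546, chromosome 11, 46810800 to 46844332, plus strand, mm10) was higher in TdTomato-positive cells. It had 38 UMIs in the 68 positive cells and 132 in the 680 matched cells, or 49.0 and 17.0 CPM, a ratio of 2.88 (1.95 to 4.15). The lowest and the median cell of both groups had 0 UMIs, and the highest had 6 and 16, so the groups overlapped. A Timd4 UMI was found in 27.9% of positive cells (17.7 to 40.1%) and 9.56% of matched cells (7.45 to 12.0%), and in none of the 24 cells with non-myeloid markers. With every cell thinned to 3000 UMIs the shares were 11.8% and 3.09%. At a mean of the groups below 50 CPM, Timd4 stood outside the genes counted further on.

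Lyve1 (ENSMUSG00000030787, chromosome 7, 110850607 to 110863239, minus strand) followed the same direction. Its level was 136 CPM in positive and 68.7 CPM in matched cells, from 105 and 532 UMIs, a ratio of 1.97 (1.58 to 2.44). The highest cell had 17 UMIs among positive and 32 among matched cells, and the median was 0 in both. Lyve1 UMIs were present in 32.4% of positive cells (21.5 to 44.8%) and 17.5% of matched cells (14.7 to 20.6%), in none of the 24 non-myeloid cells, and after thinning in 16.2% and 10.9%. Either Timd4 or Lyve1 was present in 30 of 68 positive cells (44.1%) and 136 of 680 matched cells (20.0%), and both at once in 16.2% and 7.06%.

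Ccr2 (ENSMUSG00000049103, chromosome 9, 124101950 to 124113557, plus strand), the receptor through which monocytes leave the marrow, was lower. It stood at 155 CPM in positive and 256 CPM in matched cells, from 120 and 1979 UMIs, a ratio of 0.606 (0.500 to 0.729). The difference was one of amount more than of presence: 50.0% of positive cells (37.6 to 62.4%) and 57.5% of matched cells (53.7 to 61.2%) had a UMI, against 16.7% of the 24 non-myeloid cells, and after thinning the shares were 35.3% and 36.3%. Cells with at least 5 Ccr2 UMIs per 10000 were 8 of 68 (11.8%, 5.22 to 21.9%) and 131 of 680 (19.3%, 16.4 to 22.4%). TdTomato-positive cells with Ccr2 but without Timd4 and Lyve1 made up 29.4% (19.0 to 41.7%), against 46.0% (42.2 to 49.9%) of matched cells. Ccr2 therefore did not divide the groups: 34 of the 68 positive cells carried it.

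Gpnmb (ENSMUSG00000029816, chromosome 6, 49036546 to 49070929, plus strand), a membrane glycoprotein of lipid-loaded phagocytes, gave a smaller and less steady difference. It had 107 CPM in positive and 157 CPM in matched cells, from 83 and 1214 UMIs, a ratio of 0.683 (0.540 to 0.854). As many cells held it in either group, 35.3% (24.1 to 47.8%) and 32.8% (29.3 to 36.5%), and the highest cell had 12 UMIs among positive and 69 among matched cells. The ratio was 0.432 with 1 matched cell, 0.457 without the highest doublet scores, 0.445 among cells with Xist and 1.05 among cells with Y-linked RNA.

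Arg1 (ENSMUSG00000019987, chromosome 10, 24915221 to 24927484, minus strand), which hydrolyses arginine and is a marker of repair macrophages, was lower in total. It was counted 10 times in positive cells and 945 times in matched cells, or 12.9 and 122 CPM, a ratio of 0.106 (0.0505 to 0.195). This rested on few cells, since 58.5% of the matched UMIs lay in 10 cells and the highest cell had 127 UMIs, against 5 in positive cells. An Arg1 UMI was found in 8.82% of positive cells (3.31 to 18.2%) and 16.9% of matched cells (14.2 to 19.9%), and in 2 of the 24 non-myeloid cells (8.33%), of which the highest had 14 UMIs, so these few cells give no firm background. With 1 matched cell in place of 10 the ratio was 0.333.

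Saa3, an acute-phase apolipoprotein, was lower still in total but not in share of cells. It had 10 UMIs in positive cells and 1739 in matched cells, a ratio of 0.0575 (0.0275 to 0.106), yet 11.8% and 12.1% of cells carried a UMI. The highest positive cell had 2 UMIs and the highest matched cell 406, and 88.4% of the matched UMIs lay in 10 cells. Cells with at least 5 UMIs of Arg1 or Saa3 per 10000 numbered 0 of 68, which allows up to 5.28%, and 42 of 680 (6.18%, 4.49 to 8.26%). Over the whole library, none of the 169 macrophages of this kind had a TdTomato UMI, which allows a share of up to 2.16%. That range includes the 1.54% of all day 11 macrophages, so no lower share is shown. It rests on the same positive cells and adds no support.

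**Figure D2:**
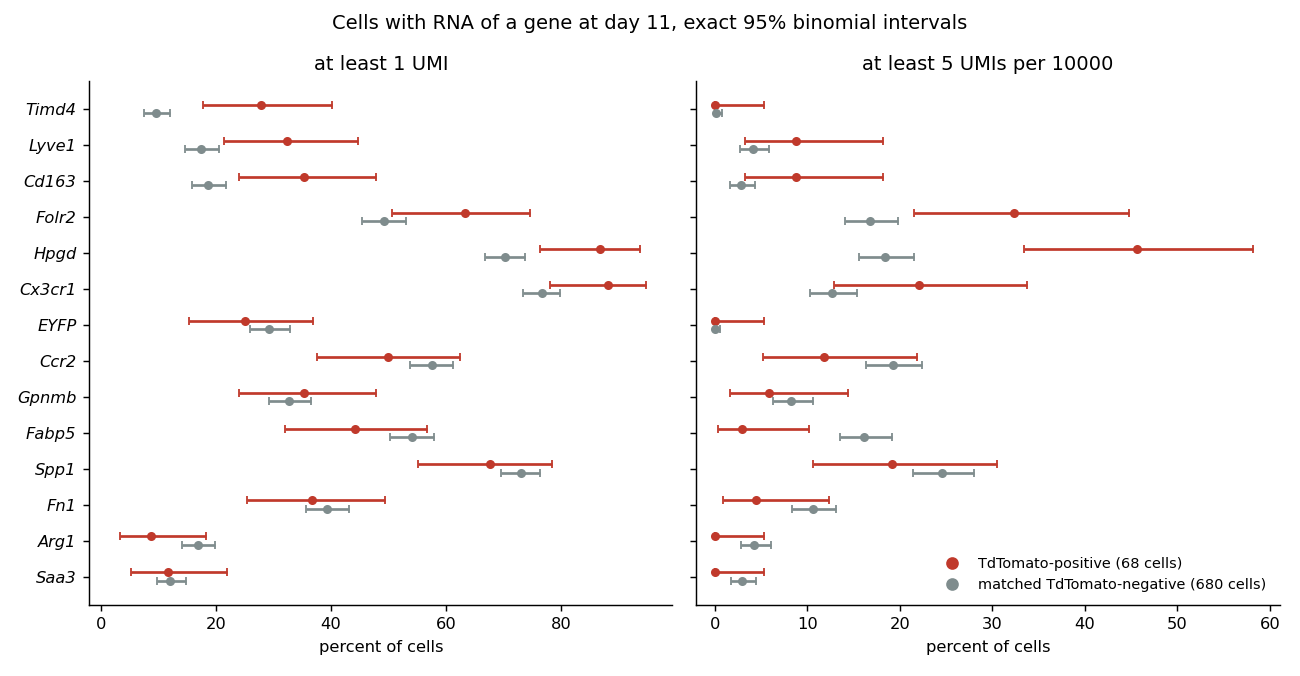
Percent of cells with RNA of 14 genes (horizontal axes) among the 68 TdTomato-positive cells (red) and the 680 matched TdTomato-negative cells (grey) of the day 11 library, at 1 UMI or more (left) and at 5 UMIs per 10000 or more (right). Bars are exact 95% binomial intervals; Timd4, Lyve1, Cd163 and Hpgd are found in more of the positive cells, Gpnmb and Saa3 in about as many, and Fabp5-rich cells are 2.94% against 16.2%.

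MHC class II genes did not separate the groups in a stable way. Their 9 genes together had 42349 CPM in positive and 47889 CPM in matched cells, a ratio of 0.884 (0.874 to 0.894). Per cell the sum ran from 18.8 through a median of 329 to 1796 UMIs per 10000 in positive cells, and from 13.2 through 417 to 1984 in matched cells, so the ranges were nearly the same. Cells fell into a low and a high set on either side of 100 UMIs per 10000, a limit chosen after the values were seen, and 46 of 68 positive cells (67.6%, 55.2 to 78.5%) and 484 of 680 matched cells (71.2%, 67.6 to 74.6%) were in the high set. The ratio was 0.808 among cells with Xist, 1.14 among cells with Y-linked RNA and 0.967 without the highest doublet scores.

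The genes of the MHC class II list behaved alike where they were abundant. All 6 tested members had ratios below 1, beside 1137 of all 2513 genes with a mean of the groups of at least 50 CPM. H2-DMb1, which loads peptides, stood at 0.765 (0.683 to 0.855), H2-Ab1 at 0.874 (0.850 to 0.898) and the invariant chain Cd74 at 0.876 (0.862 to 0.890). H2-Eb1 was at 0.901, H2-Aa at 0.909 and H2-DMa at 0.963 (0.878 to 1.05). Ciita, the coactivator of the class II genes, had 12 UMIs in positive and 234 in matched cells, a ratio of 0.513 (0.261 to 0.912). H2-Oa, part of an inhibitor of peptide loading, had 21 and 74 UMIs and a ratio of 2.84 (1.66 to 4.66), although only 7 positive cells carried it. H2-DMb2 had 15 and 155 UMIs and a ratio of 0.967 (0.529 to 1.65).

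MHC class II cut across the resident markers. Of the positive cells with Timd4 or Lyve1, 13 were in the low and 17 in the high class II set, which is 19.1% and 25% of the 68 positive cells. The matched cells had 5% and 15%. Among cells with Timd4 or Lyve1 the median class II sum was 245 UMIs per 10000 in 30 positive cells and 314 in 136 matched cells. Among cells with Ccr2 but neither of these it was 523 in 20 positive and 705 in 313 matched cells. Among cells without Timd4, Lyve1 and Ccr2 it was 227 in 18 positive cells and 82.1 in 231 matched cells, the opposite order.

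Over the whole transcriptome few genes differed by size. Among 2513 genes with a mean of the groups of at least 50 CPM, 1 was at least 2-fold higher in positive cells (0.0398%) and 6 were at least 2-fold lower (0.239%). The higher gene was Cd163, the receptor that takes up haptoglobin-haemoglobin complexes, which passed the 50 CPM limit only through the positive cells (121 and 43.0 CPM). The lower genes were Saa3, Arg1, Spp1, Fabp5, Fn1 and Bcl2a1d, the last a member of the Bcl2a1 family whose near-identical copies can split reads. Of these, Saa3, Arg1 and Bcl2a1d passed the limit only through the matched cells, so the counts include genes admitted by their own difference. Of the 2513 genes, 1376 had ratios above 1 and 1137 below. At 1.5-fold, 35 genes were higher (1.39%) and 26 lower (1.03%), and the median log2 ratio of all genes tested was 0.02. These counts moved with the choice of matched cells, from 1 to 9 genes higher and from 3 to 11 lower between 1 matched cell per positive cell and all negative cells.

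Resident macrophage genes stood above 1 as a list. Of its 20 genes, 13 were tested and all 13 had ratios above 1, beside 1376 of all 2513 genes tested. The median log2 ratio was 0.52, and 6 were at least 1.5-fold higher, to be read beside 1.39% of all genes tested. Cd163 is among these 6 and was tested only through its level in positive cells. Cd163 had 121 and 43.0 CPM (ratio 2.82, 2.22 to 3.56), with a UMI in 35.3% and 18.7% of cells. Folr2, a folate receptor, had 514 and 310 CPM (1.66, 1.49 to 1.85), and F13a1, the A subunit of coagulation factor XIII, had 648 and 390 CPM (1.66, 1.51 to 1.82). The reductase gene Cbr2 was at 1.60 (1.39 to 1.83) and Gas6, a bridging ligand for the uptake of dying cells, at 1.51 (1.34 to 1.71).

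The other tested members named here had lower ratios. Maf, a transcription factor of resident macrophages, had a ratio of 1.43 (1.27 to 1.61), the mannose receptor Mrc1 1.23 (1.09 to 1.38) and Igf1, a growth factor, 1.10 (0.955 to 1.27). Among the sparse members, Pla2g2d, a secreted phospholipase, was at 2.95 (1.77 to 4.74) from 23 and 78 UMIs. Vsig4, a complement receptor, was at 1.76 but at 0.966 without its highest positive cell, and Cd209f and Cd209g had 0 UMIs in positive cells and 7 and 3 in matched cells. Per cell, the list's sum was 29.1 UMIs per 10000 at the median in positive cells (2.94 to 191) and 19.5 in matched cells (0 to 199), and 30 positive cells (44.1%) lay above the upper quartile of the matched cells.

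The monocyte side was lower as a list. Of 20 genes of Ccr2 macrophages and monocytes, 8 were tested, and all 8 had ratios below 1, beside 1137 of all 2513 genes tested. The median log2 ratio was -0.65, and 5 were at least 1.5-fold lower, beside 1.03% of all genes tested. Fn1, fibronectin, had 116 and 238 CPM (ratio 0.487, 0.390 to 0.602), but UMIs in 36.8% and 39.4% of cells. Its highest cell had 14 UMIs among positive and 122 among matched cells. Cells with at least 5 Fn1 UMIs per 10000 were 3 of 68 and 72 of 680. The calcium-binding genes S100a4 and S100a6 stood at 0.604 (0.521 to 0.696) and 0.638 (0.573 to 0.708), and S100a4 UMIs were found in 41.2% of positive and 60.1% of matched cells. The classical monocyte gene Ly6c2 was sparse, with 4 and 136 UMIs in 4.41% and 5.88% of cells. Ace, an enzyme of patrolling monocytes, went the other way with 8 and 10 UMIs (8.00, 2.74 to 22.5). These UMIs came from only 3 of 68 positive and 6 of 680 matched cells, and the steady-state Ace ratio was 1.04 (0.658 to 1.61). Per cell the sum had a median of 19.4 UMIs per 10000 in positive cells (2.64 to 78.7) and 26.3 in matched cells (1.32 to 236), and no positive cell was above the 88.5 that marked the highest 5% of matched cells.

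**Figure D3:**
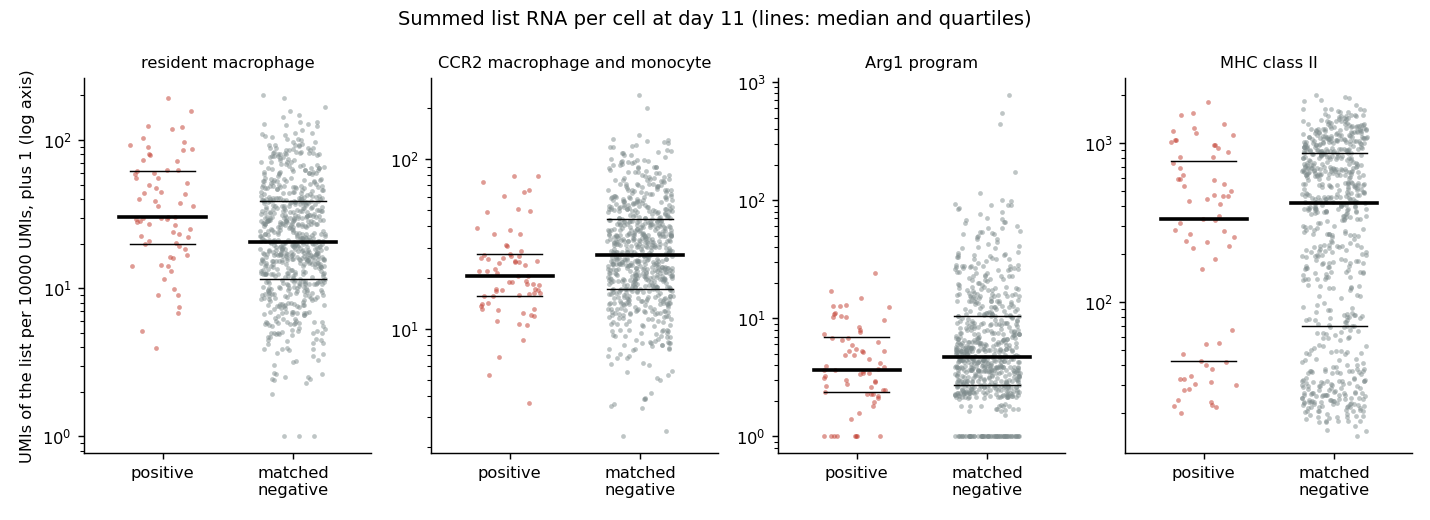
Summed UMIs of 4 gene lists per 10000 UMIs, plus 1 (vertical log axes), for each of the 68 TdTomato-positive cells (red) and 680 matched TdTomato-negative cells (grey) of the day 11 library. Thick lines are medians and thin lines quartiles; the resident list has medians of 29.1 and 19.5 and the Ccr2 list 19.4 and 26.3 before 1 is added, while MHC class II shows a low and a high set of cells in both groups.

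Lipid-associated genes were lower in part. Of 22 genes, 18 were tested, and 3 had ratios above 1 and 15 below, beside 1376 and 1137 of all 2513 genes tested. The median log2 ratio was -0.29, and 2 were at least 2-fold lower, beside 0.239% of all genes tested. Spp1, osteopontin, had 280 and 910 CPM (0.308, 0.268 to 0.352), but 67.6% and 73.1% of cells carried it, 45.8% of the 24 non-myeloid cells did too, and 46.6% of the matched UMIs lay in 10 cells. Fabp5, a fatty acid carrier, had 126 and 366 CPM (0.346, 0.280 to 0.423), and cells with at least 5 of its UMIs per 10000 were 2 of 68 (2.94%, 0.358 to 10.2%) against 110 of 680 (16.2%, 13.5 to 19.2%). Lgals3, galectin-3, was at 0.618 (0.570 to 0.669), and Trem2, a lipid receptor, at 0.857 (0.786 to 0.933). Cd36, a scavenger receptor for oxidised lipid, went the other way with 141 and 88.3 CPM (1.59, 1.29 to 1.95) and UMIs in 72.1% and 42.9% of cells, and lipoprotein lipase, Lpl, was at 1.36 (1.16 to 1.58).

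The Arg1 list of 14 repair and hypoxia genes had 3 tested members, Arg1, Spp1 and Fn1, all at least 2-fold lower, beside 0.239% of all genes tested, and the others were too sparse. Spp1 and Fn1 are the genes already counted in the lipid-associated and Ccr2 lists, and Arg1 was tested only through its level in matched cells. Glycolysis genes were lower by little: 8 of 15 were tested, and all 8 had ratios below 1, beside 1137 of all 2513 genes tested. Their median log2 ratio was -0.27, with Aldoa at 0.712 (0.622 to 0.811) and Ldha at 0.738 (0.633 to 0.856). Iron and haem genes held 2 further high ratios beside Cd163. The iron exporter Slc40a1 was at 2.60 (1.84 to 3.59) from 47 and 181 UMIs, and Hpgd, which that list holds and which degrades prostaglandins, was at 1.75 (1.56 to 1.96) with 457 and 261 CPM.

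Hpgd differed both in level and in the share of cells. It was found in 86.8% of positive cells (76.4 to 93.8%) and 70.3% of matched cells (66.7 to 73.7%), against 12.5% of the 24 non-myeloid cells. Cells with at least 5 Hpgd UMIs per 10000 made up 45.6% and 18.4%. Over the library 59 of 2931 cells with an Hpgd UMI were TdTomato-positive (2.01%, 1.54 to 2.59%), against 9 of 1475 cells without (0.610%, 0.279 to 1.16%). Among the 914 cells with at least 5 UMIs per 10000 it was 31 (3.39%, 2.32 to 4.78%). These are the same positive cells counted the other way round and add no support. In the steady-state library the depth-matched Hpgd ratio was 1.01 (0.953 to 1.06).

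Summed RNA per cell was higher for efferocytosis receptors, which take up dying cells, and for the growth factor list, the latter largely through its most abundant gene. The efferocytosis list had medians of 19.5 and 15.3 UMIs per 10000 in positive and matched cells, 34 of 68 positive cells (50%) lay above the upper quartile of the matched cells, and 8 of 9 tested genes had ratios above 1 (median log2 ratio 0.18), among them Stab1, a scavenger receptor, at 1.32 (1.16 to 1.51). It shares Timd4, Gas6 and Cd36 with the genes above. The growth factor list had medians of 39.1 and 25.8, with 47.1% of positive cells above the matched upper quartile. Its most abundant gene, the platelet factor Pf4, had 2427 and 1760 CPM (1.38, 1.31 to 1.45). The whole list summed to 4046 and 3268 CPM, so the per-cell values rest mostly on Pf4 and do not describe growth factors as a class. All 4 tested growth factors had ratios above 1, beside 1376 of all 2513 genes tested, with a median log2 ratio of 0.11.

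Median log2 ratios were -0.13 for inflammatory cytokines (11 genes tested), 0.01 for interferon genes (8), 0.00 for MHC class I (9), -0.06 for lysosome genes (16), 0.12 for complement receptors (7) and 0.05 for heat shock genes (9), beside 0.02 over all genes tested. Immediate early genes had a median of 0.24, with 13 of 14 above 1, and cell cycle genes 0.27, with all 7 tested above 1 and none at 1.5-fold. Of all 2513 genes tested, 1376 had ratios above 1. Of 15 genes that earlier results of these data gave as higher at day 11, 14 had ratios below 1 (median log2 ratio -0.43), and of 8 tested steady-state genes from the same source 7 had ratios above 1 (0.49). Those lists were chosen on these libraries and are not independent evidence.

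Outside the lists, 1 higher and 9 lower genes met the rule for naming. The rule asks for 1.5-fold without the positive cell richest in the gene, which is stricter for higher than for lower genes, so these numbers give no balance of directions. The neonatal Fc receptor Fcgrt was higher, with 508 and 320 CPM (1.59, 1.43 to 1.77). The lower genes were Smpdl3a, a phosphodiesterase (0.618, 0.486 to 0.776), Bcl2a1b (0.653), the actin-binding Tmsb10 (0.660), Aprt of adenine salvage (0.662), vimentin, Vim (0.668, 0.615 to 0.725), the lectin Clec4b1 (0.674), S100a11 (0.696), annexin A1, Anxa1 (0.739) and the protease inhibitor Cstb (0.786). Smpdl3a UMIs were found in 45.6% of positive and 68.4% of matched cells.

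The Cx3cr1 locus carries the reporter's driver. Cx3cr1 had 333 CPM in positive and 248 CPM in matched cells (1.34, 1.17 to 1.53), with UMIs in 88.2% and 76.8% of cells and in 16.7% of the 24 non-myeloid cells. EYFP, expressed from the same locus, had 25 and 263 UMIs and a ratio of 0.950 (0.604 to 1.43), with UMIs in 25% and 29.3% of cells. CreERT2 had 0 UMIs in positive cells, which allows up to 5.28% of cells, and 3 in matched cells. The interval for EYFP does not separate the value from that of Cx3cr1. In the steady-state library the same comparison put Cx3cr1 on the other side of 1, at 0.928 (0.862 to 0.998), and EYFP at 0.880 (0.733 to 1.05).

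**Figure D4:**
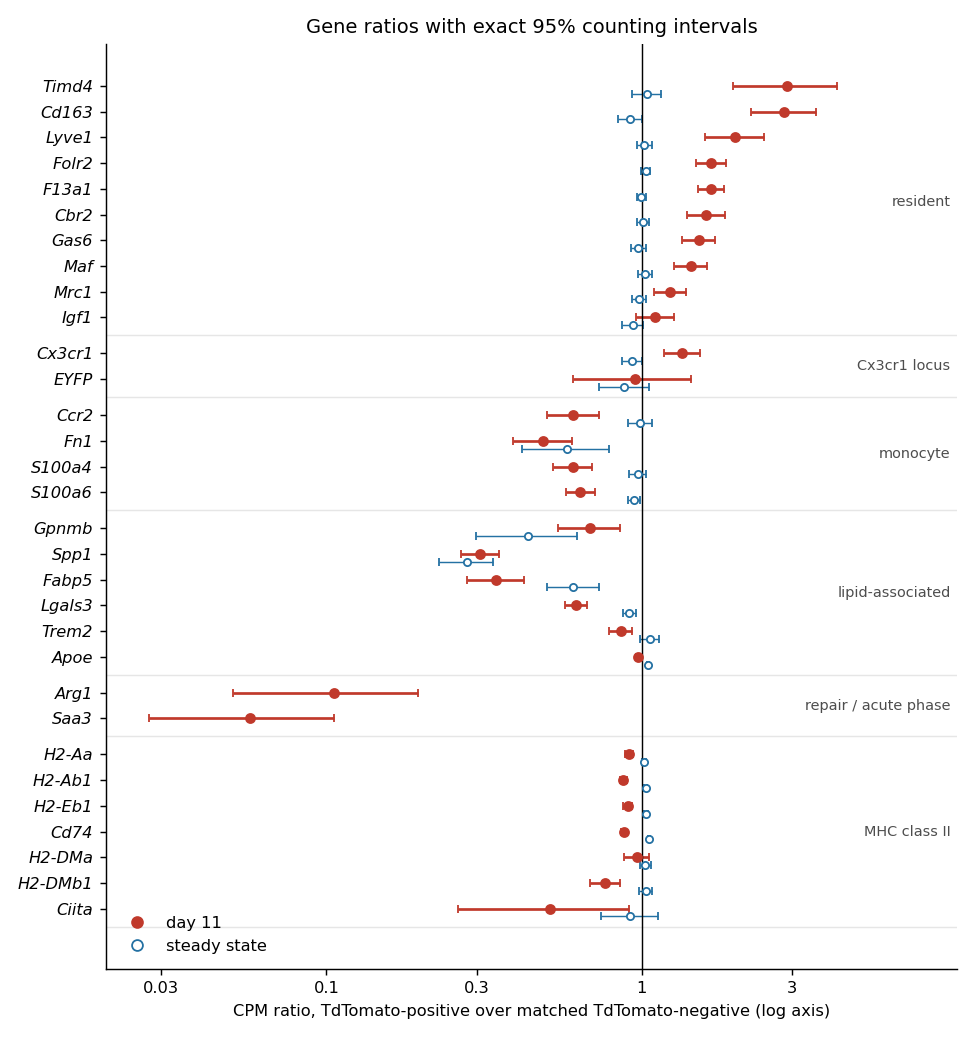
Ratio of CPM in TdTomato-positive over matched TdTomato-negative cells (horizontal log axis) for 31 genes in 6 groups, in the day 11 library (filled red) and the steady-state library (open blue, drawn where both groups had at least 30 UMIs), with exact 95% counting intervals. At day 11 resident genes lie above 1 (Timd4 2.88, Lyve1 1.97) and Ccr2 below (0.606), while at steady state these 3 lie at 1.04, 1.02 and 0.988; Spp1 lies at 0.308 and 0.278.

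The same comparison in the steady-state library, with 3 matched cells for each of 232 positive cells, gave other values for most of these genes. Beside Timd4 (1.04), Lyve1 stood at 1.02 (0.962 to 1.08), Folr2 at 1.03 (0.994 to 1.06), Cd163 at 0.917 (0.840 to 1.00) and Ccr2 at 0.988 (0.903 to 1.08). MHC class II was at 1.04 (1.03 to 1.04). Genes lower at day 11 were in part lower here too: Gpnmb was at 0.437 (0.299 to 0.621), Spp1 at 0.278 (0.227 to 0.338), Fabp5 at 0.606 (0.501 to 0.730) and Fn1 at 0.578 (0.418 to 0.785). Shares of cells differed less, with Gpnmb UMIs in 14 of 232 positive and 44 of 696 matched cells. For Spp1 these were 68 and 224 cells, for Fabp5 60 and 221, and for Fn1 23 and 77. Steady-state macrophages with at least 5 UMIs per 10000 were few: 5 for Gpnmb, 16 for Spp1, 9 for Fabp5 and 10 for Fn1. None of these had a TdTomato UMI. Saa3 had 0 UMIs in positive and 8 in matched cells. The libraries share no cells, and differences between them were not tested.

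The day 11 library held RNA of both sexes. Of its macrophages 1836 had Xist UMIs and no Y-linked UMI, 1025 the reverse, 451 both and 1094 neither. TdTomato was found in 38 of the first set (2.07%, 1.47 to 2.83%) and 11 of the second (1.07%, 0.537 to 1.91%), or 2.25 and 1.11 CPM, a ratio of 2.02 (1.02 to 4.36). Xist cells thus made up 55.9% of positive and 41.2% of matched cells, and their part in the gene ratios was examined by matching within each set. Among Xist cells Timd4 was at 3.30, Lyve1 at 2.17, Ccr2 at 0.585 and Cd163 at 4.83. Among Y-linked cells, with 11 positive cells, Timd4 was at 1.43 (0.157 to 6.21), Lyve1 at 2.40, Ccr2 at 0.474 and Cd163 at 1.62. The animals behind these sets are not named in the labels, so sex and animal cannot be told apart.

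**Figure D5:**
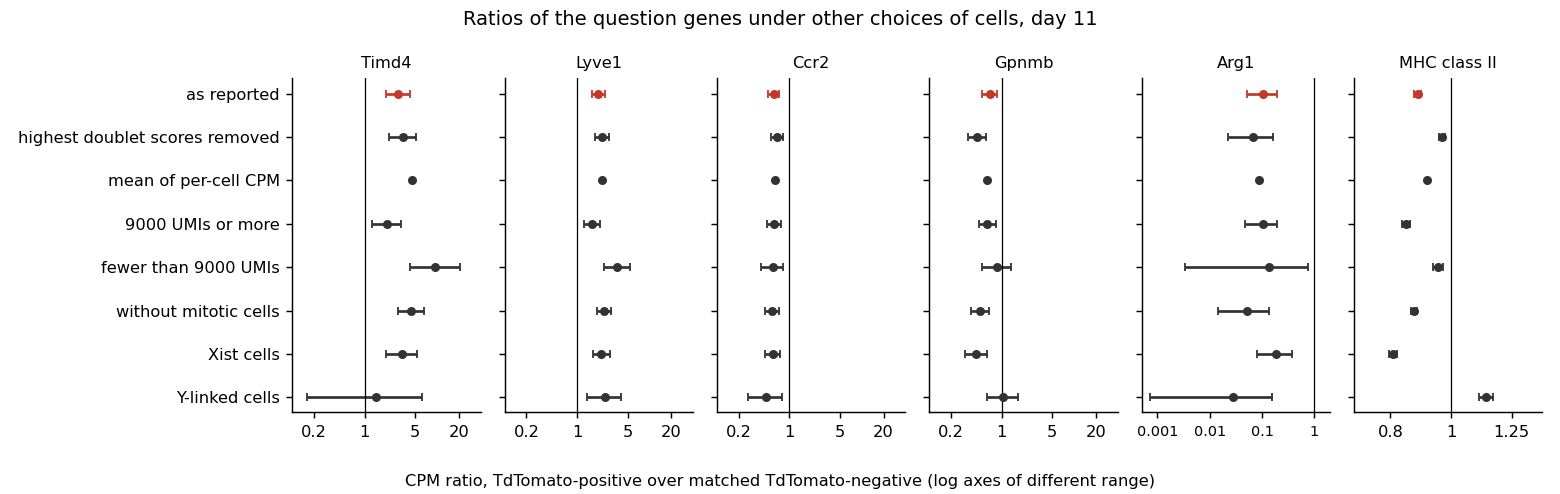
Ratio of CPM in TdTomato-positive over matched TdTomato-negative cells (horizontal log axes of different range) for the 5 genes and MHC class II, as reported (red) and under 7 other choices of cells or pooling (black), in the day 11 library. Bars are exact 95% counting intervals, absent for the mean of per-cell CPM; Lyve1 stays between 1.62 and 3.62 and Ccr2 between 0.474 and 0.678 in these settings, while MHC class II spans 0.808 to 1.14.

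The ratios of resident genes moved between sets of cells chosen by depth or by mitosis genes. Timd4 was at 2.05 among cells with at least 9000 UMIs and at 9.33 among those below, each with 34 positive cells, and Lyve1 at 1.62 and 3.62. Mitosis genes (at least 3 of 14) were found in 14.7% of positive cells (7.28 to 25.4%) and 9.12% of matched cells (7.06 to 11.5%). Without such cells Timd4 stood at 4.37 (2.85 to 6.58) and Gpnmb at 0.506. Each set drew newly matched cells, and with 5 matched cells for each of the same 68 positive cells Timd4 was already at 4.13 (2.61 to 6.49). The part of depth or of dividing cells in these moves was not tested.

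RNA of other cell types was low in both groups and differed in both directions, and its part in the results was not tested. Summed CPM of 10 cardiomyocyte genes was 106 in positive and 63.9 in matched cells, with no gene at 0 in positive cells. It was 43.9 and 34.3 for 8 endothelial genes (Emcn, Kdr, Flt1 and Cldn5 at 0), 36.1 and 75.9 for 7 fibroblast genes (Pdgfra at 0), 59.4 and 66.9 for 10 dendritic cell genes (Clec9a, Siglech, Xcr1, Itgae and Ccr7 at 0) and 42.6 and 41.7 for 7 neutrophil genes (Cxcr2, Ly6g and Retnlg at 0). Lymphocyte genes had 76.1 and 39.6 CPM, with Cd3d, Cd3e, Cd3g, Ncr1 and Gzma at 0, and 18 Cd79a UMIs came from 1 positive cell. Erythroid genes had 1 and 22 UMIs. The highest doublet scores marked 6 of 68 positive cells (8.82%) and 39 of 680 matched cells (5.74%).

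The 3 cells with 2 TdTomato UMIs were unlike one another. The first, with 12453 UMIs, had 3 Timd4, 7 Lyve1, 19 Folr2 and 12 Cd163 UMIs, no Ccr2, and 23.3 MHC class II UMIs per 10000. The second, with 24210 UMIs, had no Timd4 or Lyve1, 7 Folr2 UMIs and 1 Ccr2 UMI, and 589 MHC class II UMIs per 10000. The third, with 11773 UMIs, had no Timd4 or Lyve1, 1 Folr2 and 1 Ccr2 UMI, and 551 MHC class II UMIs per 10000. None of the 3 cells had an Arg1 or Saa3 UMI.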

How the data were processed

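Single-cell libraries of sorted heart macrophages were counted by the authors, who deposited raw UMI counts per gene and cell barcode for each library. Per the submitters' processing notes, Cell Ranger and STAR were used with the mm10 build. Their versions, and how cells were called, were not given in the sources used here. Gene positions came from GENCODE vM21. The reporter entries are listed in both reporter libraries, and the reference sequence counted for them is not given.

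Cells, matching and thresholds are as stated in the results. CPM is UMIs of a gene per 1000000 of all UMIs of the pooled cells. Ratios have exact conditional (Clopper-Pearson) 95% intervals, shares Clopper-Pearson intervals and rates exact Poisson intervals. No test was made because each group is 1 library. A share of 0 is given with the upper end of its exact 95% interval. The counting code recovered ratios set in simulated data. These held independent counts with no clumping of UMIs in few cells, so they do not cover genes such as Saa3 and Arg1. Doublets were scored with Scrublet in scanpy 1.11.5 (numpy 2.4.6, scipy 1.17.1, pandas 2.3.3, Python 3.11.15); its threshold marked 0 barcodes and did not work, so the highest 0.8% per 1000 barcodes (175) were marked and left out only in an alternative. Question, MHC class II and reporter genes were always named, other lists by up to 6 genes each (the most abundant or the largest and smallest ratios). List members named beyond these, such as Igf1, Vsig4, Pla2g2d, Slc40a1 and Ace, were chosen after their values were seen. Genes outside the lists were named at a mean of 100 CPM or more, an interval clear of 1, and 1.5-fold or more without the positive cell richest in the gene, up to 12 per direction (6 higher and 19 lower genes met this, most of them in the lists or of kinds not named).

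The compared cells and the 29 gene lists were chosen with earlier results of these data known. Chosen after values were seen were the limits of 5 and 100 UMIs per 10000, the 10 UMIs per 10000 that marked non-myeloid cells, 3 matched cells at steady state (where 10 ran short), and the subsets by sex-linked RNA, depth and cell cycle.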

Additional observations from a re-analysis of the deposited data

Results flagged for a closer look

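Some genes lay on opposite sides of 1 in the 2 reporter libraries with both intervals clear of 1. Those named here are examples and not a full list, and these differences between libraries were not tested. Arg1 in TdTomato-positive over matched cells was 0.106 at day 11 and 8.84 at steady state, where it rests on 18 UMIs, all of 1 positive cell, against 6 UMIs in matched cells. MHC class II was 0.884 at day 11 and 1.04 at steady state, and the day 11 value itself crossed 1 among cells with Y-linked RNA. Pla2g2d was 2.95 at day 11, from 23 and 78 UMIs, and 0.602 at steady state, from 169 and 827 UMIs. Cx3cr1 was 1.34 at day 11 and 0.928 (0.862 to 0.998) at steady state. Slc40a1, higher in positive cells at day 11, was 0.837 (0.720 to 0.971) at steady state.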

How the results depend on the processing

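Directions of Timd4, Lyve1, Ccr2 and Arg1 held in all 20 alternatives run for each, Gpnmb in 19 and MHC class II in 18. The alternatives reuse the same positive cells, and asking for at least 1000 detected genes left these ratios unchanged. Some intervals spanned 1: Timd4 among Y-linked cells (0.157 to 6.21), Lyve1 at 2 or more TdTomato UMIs (0.791 to 4.87) and Ccr2 without cells with 3 cell cycle genes (0.532 to 1.06). With at least 2 TdTomato UMIs, which leaves 3 cells, the share was 0.0691%, Timd4 7.49, Ccr2 0.250, Gpnmb 0.359, Arg1 0, MHC class II 1.20, and 299 genes were 2-fold higher and 188 lower. With 1 matched cell Gpnmb was 0.432, Arg1 0.333, and the counts 9 and 11; with 5 matched cells MHC class II was 0.906 and 2 genes were higher; against all negative cells the counts were 5 and 3, and matched on detected genes 4 were higher. At most 5% mitochondrial UMIs gave MHC class II 0.870 and 2 higher genes, doublets removed gave Gpnmb 0.457, MHC class II 0.967 and 4 higher, and the mean of per-cell CPM gave Timd4 4.43, MHC class II 0.916 and 9 higher. Without the top positive cell MHC class II was 0.856, and without shared barcodes 2 genes were higher. The counts were 20 and 15 at 20 CPM, 0 and 2 at 200 CPM, and 1168 and 3381 with no filter. Thinning to 3000 UMIs moved the shares in positive and matched cells to 11.8 and 3.09% (Timd4), 16.2 and 10.9% (Lyve1), 35.3 and 36.3% (Ccr2), 20.6 and 18.1% (Gpnmb) and 2.94 and 8.24% (Arg1). The following were chosen after seeing the data. Xist cells gave a TdTomato share of 2.07%, Gpnmb 0.445, MHC class II 0.808 and counts of 17 and 13; Y-linked cells gave 1.07%, Timd4 1.43, Ccr2 0.474, Gpnmb 1.05, Arg1 0.0282, MHC class II 1.14 and counts of 72 and 64. Without cells with 3 mitosis genes Timd4 was 4.37, Gpnmb 0.506, MHC class II 0.873 and 6 genes were higher. Without cells with 3 of 25 cell cycle genes, which leaves 25 positive cells, Timd4 was 13.6, Lyve1 5.17, Ccr2 0.760, Gpnmb 0.210, MHC class II 0.898 and the counts 44 and 33. Below 9000 UMIs Timd4 was 9.33, Lyve1 3.62, Gpnmb 0.863, MHC class II 0.953, the counts 29 and 15, and H2-Oa reversed to 0.909; at 9000 or more MHC class II was 0.847, and at 6000 or more it was 0.857 with 2 higher genes. The cause of these moves was not tested, beyond fewer cells in the smaller sets. No paired analysis was possible because each group is 1 library, and for the same reason no replicate could be left out. At 68 positive cells, genes below about 50 CPM rest on few UMIs, and labelled cells with 0 TdTomato UMIs cannot be told from unlabelled ones.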
